A study of Rattus norvegicus with 12 samples.

Results

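Followed here are 10 genes of the actin cytoskeleton in rat hepatic progenitor cells: the beta-thymosins Tmsb4x and Tmsb10, the transgelins Tagln and Tagln2, the actins Acta2 and Actb, and the contractile genes Cnn1, Myl9, Tpm1 and Tpm2. They were taken by symbol, 10 of the 22384 lines of the deposited table that carry a gene symbol, and each symbol stood on 1 line. The RNA-seq series holds 12 libraries in 6 groups of 2, all from hepatic progenitor cells (HPCs), immature liver cells that can form hepatocytes and bile duct cells, labelled as day 13.5 of gestation. The groups were Tnfrsf1α-/- HPCs exposed for 1 hour to TNFα, tumour necrosis factor alpha, and untreated Tnfrsf1α-/- HPCs, Tnfrsf1β-/- HPCs given TNFα for 1 hour and untreated Tnfrsf1β-/- HPCs, and wild-type (WT) HPCs given TNFα for 1 hour and untreated WT HPCs. The deleted genes named by these labels are those of the TNF receptors TNFR1 and TNFR2. Neither the rat strain, nor how the deletions were made, nor whether a knockout is 1 clone is given in the sources used here. The labels do not state whether the 2 libraries of a group are separate cultures or animals, and p-values therefore measure only the spread between libraries, which may be technical. Levels are log2(FPKM + 1), where FPKM is the number of fragments per kilobase of transcript, relative to all mapped fragments of the library. A fold on this scale understates the change of low genes. The table's log base was inferred from its values.

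Actin exists as free monomers and as filaments. Beta-thymosins are small peptides that bind free actin monomers and keep them from being added to filaments, and Tmsb4x is the most abundant of them in many cell types. Transgelins and calponins bind along filaments, Tagln being a marker of smooth muscle and Tagln2 a relative found in many other cells. Tropomyosins, encoded by Tpm1 and Tpm2, lie along filaments and govern the access of myosin, whose regulatory light chain in smooth muscle is encoded by Myl9. Acta2, the smooth muscle actin, marks activated hepatic stellate cells and myofibroblasts in liver, while Actb is a cytoplasmic actin of nearly all cells. Many of these genes are controlled by serum response factor (SRF), which binds CArG boxes and whose cofactors of the myocardin-related family are held back by free actin monomers.

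Several facts of the whole series bear on the values below. Tnfrsf1a, the gene of TNFR1, had 5.65 to 6.13 in the 4 libraries labelled Tnfrsf1α-/-, against 4.71 to 5.83 in the 8 others, so the libraries are called labelled Tnfrsf1α-/- throughout. Tnfrsf1b, the gene of TNFR2, was listed at 0 in the 4 Tnfrsf1β-/- libraries and also in both untreated WT libraries. It had 0 and 4.09 in the treated libraries labelled Tnfrsf1α-/-, 0.03 and 0 in the untreated ones, and 2.58 and 2.43 in WT with TNFα. A level of 0 thus does not set the Tnfrsf1β-/- libraries apart from untreated WT. Below, knockout refers to the labels. The 2 treated libraries labelled Tnfrsf1α-/- stood apart from each other, with a Spearman correlation of 0.782 across 11860 genes and 1231 genes over 2 log2 units apart, against 0.961 to 0.996 in the other 5 pairs. Over all 10 hepatocyte markers the median was 7.26 and 7.45 in WT with TNFα and at most 0.10 in every other library. Over the 10 progenitor and bile duct markers it was 5.48 and 5.45 in WT with TNFα and at most 0.40 elsewhere. Of these markers Krt18, Krt19 and Epcam were at most 0.46 outside WT with TNFα. Krt7 was present in every library, at 7.64 or more, and Krt8 in all at 6.26 or more but for 0.62 in replicate 2 of the treated label Tnfrsf1α-/-. Sox9 had 9.67 and 9.39 in the treated label Tnfrsf1α-/-, 9.15 and 9.19 in WT with TNFα, 5.21 to 6.30 in treated Tnfrsf1β-/- and untreated WT, and at most 0.31 in both untreated knockouts. Over the 10 mesenchymal and stellate markers in the table, of 11 listed, it was 0.20 and 0.47 in WT with TNFα and 3.09 to 6.57 elsewhere, although Dcn, at 8.16 and 7.72, and Col1a1, at 7.98 and 7.82, were high in WT with TNFα too. The medians of the endothelial, macrophage and muscle markers were at most 0.30 in all libraries, but some members were higher. Cd14 had 3.67 to 5.65 in all libraries, and Cd68 4.09 in replicate 2 of the treated label Tnfrsf1α-/-. Tnnt2 had 3.40 and 3.92 in untreated WT and 3.11 and 4.56 in treated Tnfrsf1β-/-. Ckm had 3.83 and 3.90 in WT with TNFα, and Tek 2.26 to 2.39 in both untreated knockouts. The other markers of these lists were at most 0.73 in every library. The sum of all FPKM values was 447554 to 472935 in each untreated knockout library and 1071530 to 2085916 in each of the other 8 libraries. The part of these differences in the results below was not tested, and in bulk RNA fewer cells of a type and less RNA per cell cannot be told apart.

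Promoters are printed for the 5 genes whose levels ranged most widely over the 12 libraries. Of the 10 genes, 7 matched the RefSeq promoter table of build GRCr8, while Tagln, Actb and Myl9 had no entry. The sequences run over the 250 bases before the annotated start, 5′ to 3′ on the strand of the gene. Tmsb4x lies at chrX:30761361-30761610 on the plus strand, Tmsb10 at chr4:106569141-106569390 on the minus strand, Tagln2 at chr13:87499158-87499407 on the plus strand, Acta2 at chr1:241172504-241172753 on the minus strand and Tpm1 at chr8:76543416-76543665 on the minus strand. Capitals mark CArG-like boxes, which are CC, then 6 bases of which 5 are A or T, then GG, and the TEAD motif GGAATG on either strand, whose reverse complement is CATTCC.
Tmsb4x: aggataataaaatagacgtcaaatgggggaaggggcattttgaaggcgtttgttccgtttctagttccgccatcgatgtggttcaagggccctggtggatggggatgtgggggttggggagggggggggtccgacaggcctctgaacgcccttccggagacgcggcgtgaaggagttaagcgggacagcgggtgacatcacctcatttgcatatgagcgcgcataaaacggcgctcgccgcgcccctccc
Tmsb10: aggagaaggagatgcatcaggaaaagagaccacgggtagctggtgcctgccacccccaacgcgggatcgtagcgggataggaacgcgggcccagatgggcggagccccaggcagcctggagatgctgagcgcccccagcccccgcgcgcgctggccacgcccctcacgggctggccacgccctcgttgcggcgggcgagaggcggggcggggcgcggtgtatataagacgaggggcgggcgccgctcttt
Tagln2: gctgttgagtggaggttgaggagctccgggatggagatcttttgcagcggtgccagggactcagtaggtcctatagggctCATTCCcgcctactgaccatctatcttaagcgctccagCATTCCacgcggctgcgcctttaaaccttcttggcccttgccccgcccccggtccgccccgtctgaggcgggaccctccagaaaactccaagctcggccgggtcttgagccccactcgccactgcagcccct
Acta2: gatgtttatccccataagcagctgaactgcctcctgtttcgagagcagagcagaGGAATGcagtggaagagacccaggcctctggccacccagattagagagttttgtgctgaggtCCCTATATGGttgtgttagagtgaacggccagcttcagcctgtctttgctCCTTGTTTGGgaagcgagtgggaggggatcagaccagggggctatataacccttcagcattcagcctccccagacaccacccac
Tpm1: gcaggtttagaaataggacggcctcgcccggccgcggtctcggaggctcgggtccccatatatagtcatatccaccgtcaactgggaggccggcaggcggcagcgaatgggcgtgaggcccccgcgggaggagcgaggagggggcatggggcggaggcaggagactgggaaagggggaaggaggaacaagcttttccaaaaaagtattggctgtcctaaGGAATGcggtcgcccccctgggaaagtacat
No strict CArG box, with all 6 central bases A or T, was found in the 7 promoters, while 1.5% of all 33469 promoters of this length hold one. The promoters of Tagln, Actb and Myl9 could not be searched. The Acta2 promoter held 2 CArG-like boxes, starting 134 and 84 bases before the gene's start, and 6.84% of all promoters hold at least 1. GGAATG was found in 3 of the 7, at 170 and 132 bases before the start of Tagln2, at 196 bases in Acta2 and at 31 bases in Tpm1, against 12.1% of all promoters. The 2 kinds of motif did not overlap in these sequences.

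The 10 genes fell into 3 kinds by level. Tmsb4x, Tagln2, Actb, Tpm1 and Tagln were abundant in most libraries, Acta2 and Tmsb10 were intermediate, and Tpm2, Myl9 and Cnn1 were low. Over the 12 libraries the range between lowest and highest was 14.06 log2 units for Tmsb4x, 11.89 for Tagln2, 9.23 for Acta2, 8.89 for Tmsb10, 5.16 for Tpm1, 4.04 for Tpm2, 3.67 for Tagln and 1.89 for Actb. Actb, the widely used reference gene, thus had the narrowest range of these 8. Testing required a mean FPKM of 1 or more across all libraries, which 8 of the 10 reached. Cnn1, calponin 1, was listed at 0 in 8 libraries and had at most 0.37 in the others. Myl9 had 1.09 and 0 in treated libraries labelled Tnfrsf1α-/-, 0.26 and 0.31 in untreated ones, 1.33 and 0.73 in Tnfrsf1β-/- with TNFα, 0.38 and 0.44 in untreated Tnfrsf1β-/-, 0.13 and 0.27 in WT with TNFα and 1.40 and 1.87 in untreated WT. With no filter, limma called Myl9 1.43 log2 units lower in WT with TNFα than in untreated WT, with an adjusted p of 0.0261.

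**Figure D1:**
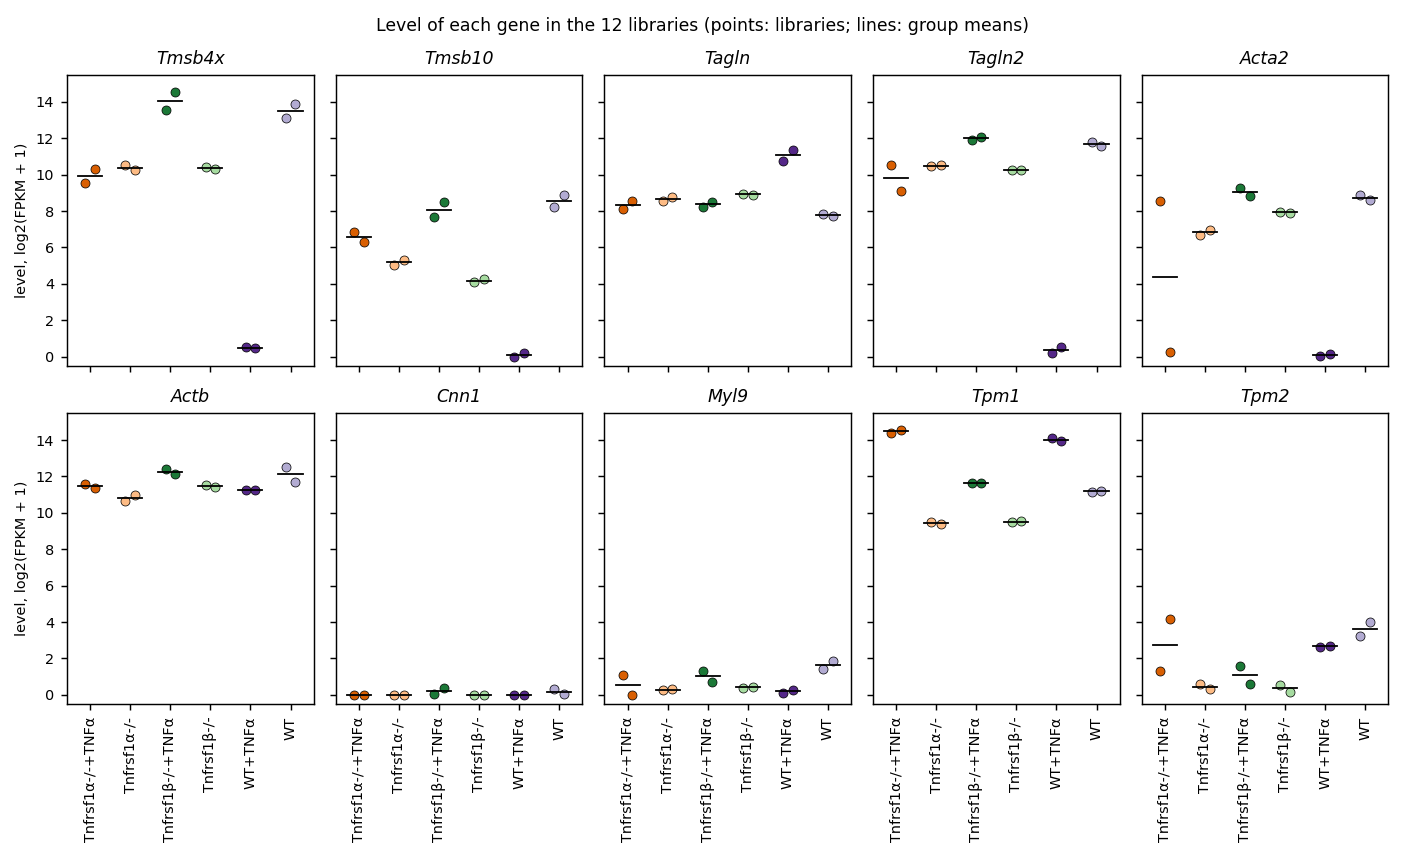
Level of each of the 10 genes, as log2(FPKM + 1) on the vertical axis, in the 6 groups on the horizontal axis. Points are libraries and lines are group means; Tmsb4x, Tmsb10, Tagln2 and Acta2 lie below 0.6 in both libraries of WT with TNFα, where Tagln is at its highest.

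TNFα was compared with no treatment in WT HPCs first. Both thymosins, Tagln2 and Acta2 were nearly absent in treated WT HPCs, while Tagln and Tpm1 were higher. Of the 8 genes tested, 2 rose and 5 fell, where 47.2% of all 11860 genes tested were called, 31.9% higher and 15.3% lower. Their median difference was -4.70 log2 units, against 0.32 over all genes tested, and their median absolute difference was 5.87, against 0.86. TNFα was given for 1 hour, and the same 2 libraries were those in which the hepatocyte markers were high and the median of the mesenchymal markers was lowest.

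Among the genes for monomer binding, Tmsb4x had 0.51 and 0.46 in WT with TNFα, against 13.14 and 13.89 in untreated WT. In mean FPKM this was 0.400 against 12100.1, and in untreated WT this 1 gene took 0.840% and 1.23% of the summed FPKM. Tmsb10 was listed at 0 and 0.18 in WT with TNFα, against 8.24 and 8.89 in untreated WT. No library of one group came near those of the other for either thymosin. The differences were -13.03 (SE 0.39) for Tmsb4x and -8.47 (SE 0.33) for Tmsb10, with limma adjusted p-values of 1.49e-08 and 7.96e-08.

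The transgelins moved in opposite directions. Tagln2 had 0.18 and 0.51 in WT with TNFα, against 11.82 and 11.56 in untreated WT, a difference of -11.34 (SE 0.40, limma adjusted p = 3.64e-08). Tagln had 10.73 and 11.37 in WT with TNFα, against 7.85 and 7.70 in untreated WT, a difference of 3.28 (SE 0.26, limma adjusted p = 1.07e-05). In mean FPKM, Tagln stood at 2174 against 218, and Tagln2 at 0.279 against 3311. In both genes the treated and untreated libraries lay far apart, so the more abundant transgelin of WT HPCs was Tagln with TNFα and Tagln2 without.

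The actins fell by unequal amounts. Acta2 had 0.02 and 0.13 in WT with TNFα, against 8.90 and 8.59 in untreated WT, a difference of -8.67 (SE 2.02, limma adjusted p = 0.00804). Its SE rests on the treated pair labelled Tnfrsf1α-/-, whose libraries had 8.55 and 0.26: without that pair the adjusted p was 2.02e-09, and without either treated WT library it was 0.0566 or 0.0533. A fit without 1 library leaves its group a lone library, which is assumed to vary like the other groups. Actb had 11.25 in both WT libraries with TNFα, against 12.54 and 11.70 in untreated WT, and its difference of -0.88 (SE 0.28, limma adjusted p = 0.0326) was lost in 5 of 12 fits with 1 library left out, at an adjusted p of up to 0.155, the value without WT replicate 1. The libraries of these groups did not overlap for either actin, but the untreated WT libraries differed from each other in Actb nearly as much as the groups did.

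The tropomyosins differed in level throughout. Tpm1 had 14.09 and 13.96 in WT with TNFα, against 11.15 and 11.22 in untreated WT, a difference of 2.84 (SE 0.17, limma adjusted p = 1.28e-06). Tpm2 had 2.63 and 2.71 in WT with TNFα, against 3.22 and 3.99 in untreated WT, and its difference of -0.93 (SE 0.78) did not pass, with an adjusted p of 0.354. Tpm1 was thus high in every library and higher with TNFα, while Tpm2 stayed below 4.2 in every library.

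**Figure D2:**
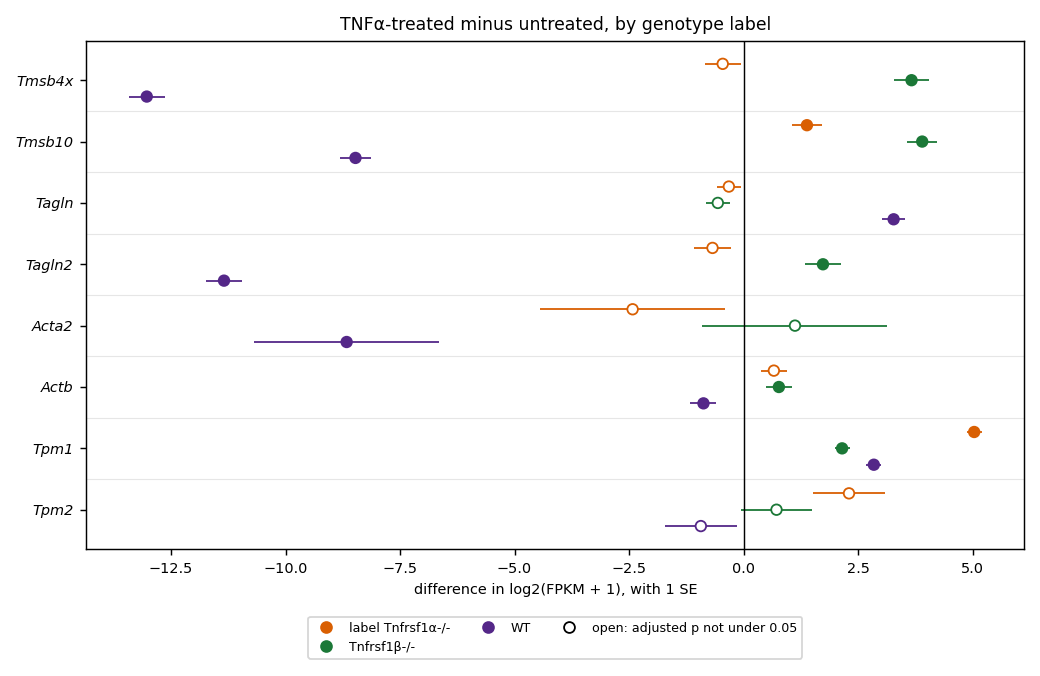
Difference in log2(FPKM + 1) between TNFα-treated and untreated libraries for the 8 genes tested, by genotype label, with 1 SE; filled points have a limma adjusted p under 0.05. In WT, Tmsb4x lies at -13.03 and Tagln2 at -11.34, while in Tnfrsf1β-/- they lie at 3.67 and 1.73.

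In HPCs labelled Tnfrsf1α-/-, the change with the smallest p under TNFα was that of Tpm1, which was 32.8-fold higher in treated libraries. It had 14.41 and 14.55 in treated libraries labelled Tnfrsf1α-/-, against 9.50 and 9.39 in untreated ones, a difference of 5.03 (SE 0.17, limma adjusted p = 6.59e-08). Tmsb10 also rose, with 6.82 and 6.29 in treated libraries, against 5.06 and 5.29 in untreated ones. The line of the pseudogene Tmsb10-ps6, LOC100364435, had 10.66 and 10.23 in treated libraries, against 10.49 and 10.55 in untreated ones. Reads may be shared with such copies, which was not tested and leaves the level of Tmsb10 uncertain. For Tmsb10 the difference was 1.38 (SE 0.33, limma adjusted p = 0.0250), and it was lost in 9 of 19 alternatives, at an adjusted p of up to 0.170. Of the 8 genes tested, 2 rose and none fell by limma, where 17.3% of all genes tested were called, 9.81% higher and 7.5% lower. At an unadjusted p under 0.05 there were 4 higher, with Actb and Tpm2, and 0 lower.

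The other 6 genes did not pass, and for some the treated libraries disagreed. Acta2 had 8.55 in replicate 1 and 0.26 in replicate 2 of the treated libraries labelled Tnfrsf1α-/-, against 6.67 and 6.98 in untreated ones. The first lay above both untreated libraries and the second far below them, and the difference of -2.42 had an SE of 2.02. It was 1.72 without treated replicate 2 and -6.57 without treated replicate 1, with limma adjusted p-values of 0.00142 and 1.34e-07, each of which rests on 1 treated library and the spread of the other groups. Tagln2 had 10.55 and 9.09 in treated libraries, against 10.46 and 10.53 in untreated ones, and Tpm2 had 1.32 and 4.19, against 0.57 and 0.34. Without treated replicate 1, Tagln2 was -1.41 and Tpm2 3.74 log2 units from the untreated pair, values that likewise rest on 1 treated library. Tmsb4x had 9.53 and 10.32 in treated libraries, against 10.52 and 10.24 in untreated ones, and the groups overlapped. Tagln had 8.12 and 8.57, against 8.57 and 8.76, and Actb 11.59 and 11.37, against 10.64 and 11.00. The adjusted p-values of the 6 genes ran from 0.0740 for Tpm2 to 0.407 for Tmsb4x.

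In Tnfrsf1β-/- HPCs, both thymosins, Tagln2, Tpm1 and Actb were higher with TNFα. Of the 8 genes tested, 5 rose and none fell by limma, where 60.5% of all genes tested were called, 17.6% higher and 42.9% lower, and at an unadjusted p under 0.05 there were again 5 higher and 0 lower. Their median difference was 1.43 log2 units, against -0.66 over all genes tested.

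Tmsb4x had 13.54 and 14.52 in Tnfrsf1β-/- with TNFα, against 10.40 and 10.32 in untreated Tnfrsf1β-/-, a difference of 3.67 (SE 0.39, limma adjusted p = 0.000214). The treated libraries spent 1.1% and 2.0% of their summed FPKM on this gene. Tmsb10 had 7.66 and 8.50 with TNFα, against 4.09 and 4.27 untreated, a difference of 3.90 (SE 0.33, limma adjusted p = 7.73e-05). Both thymosins were higher in each treated library than in each untreated one. The line of Tmsb10-ps6 had 11.79 and 12.40 with TNFα, against 10.84 and 10.68 untreated, and reads it may share leave the size for Tmsb10 uncertain. Tagln2 had 11.92 and 12.07 with TNFα, against 10.26 in both untreated libraries, a difference of 1.73 (SE 0.40, limma adjusted p = 0.00554). Tpm1 had 11.65 and 11.67 with TNFα, against 9.48 and 9.53 untreated, a difference of 2.15 (SE 0.17, limma adjusted p = 4.25e-05). For all 4 genes the gap between groups exceeded the spread within them, but under quantile normalization the differences of Tagln2 and Tpm1 were -0.42 and 0.03 and neither passed.

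Actb had 12.42 and 12.13 in Tnfrsf1β-/- with TNFα, against 11.56 and 11.45 untreated, and its difference of 0.77 (SE 0.28) passed at a limma adjusted p of 0.0423, was lost in 8 of 12 fits with 1 library left out, and was -1.53 under quantile normalization. Tagln had 8.20 and 8.52 with TNFα, against 8.95 and 8.89 untreated, with a difference of -0.56 and an adjusted p of 0.0861. Acta2 had 9.25 and 8.83 with TNFα, against 7.97 and 7.87 untreated. Its difference of 1.12 had an adjusted p of 0.666, and of 0.000931 without the treated pair labelled Tnfrsf1α-/-, which sets its SE. Tpm2 had 1.57 and 0.57, against 0.55 and 0.16, and did not pass, with an adjusted p of 0.461. For Tagln and Acta2 the libraries of the 2 groups did not overlap, and neither did those of Tpm2.

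The scaling between libraries matters for these counts. The median of all genes tested differed by 0.32 for TNFα in WT and by -0.66 in Tnfrsf1β-/-, and median-ratio scaling brings it near 0. For TNFα in WT the counts were 2 higher and 5 lower under either other scaling. In Tnfrsf1β-/- they were 5 higher and none lower under median-ratio scaling and 2 higher and 2 lower under quantile normalization, and under the label Tnfrsf1α-/- they were 1 higher and none lower, and 1 higher and 4 lower.

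The response to TNFα differed between each knockout label and WT for most of these genes, tested as the difference of the 2 differences. Both comparisons share the 4 WT libraries, of which the 2 treated ones were those in which the hepatocyte markers were high. The part of this in the differences in response was not tested. Of the 8 genes, 5 were higher and 1 lower for the label Tnfrsf1α-/- minus WT, where 34.8% of all genes tested were called, 12.8% higher and 22% lower. For Tnfrsf1β-/- minus WT 5 were higher and 2 lower, where 64.5% were called, 17.3% higher and 47.3% lower.

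The difference in response of Tmsb4x was 12.57 log2 units for the label Tnfrsf1α-/- and 16.69 for Tnfrsf1β-/-. That of Tmsb10 was 9.86 and 12.37, and that of Tagln2 was 10.66 and 13.07. All 6 had limma adjusted p-values from 5.63e-08 to 1.04e-06 and kept their call and sign in every alternative run. The difference in response of Tagln was -3.60 for the label Tnfrsf1α-/- and -3.84 for Tnfrsf1β-/-, and both calls held in every alternative run. For Tpm1 this difference was 2.19 for the label Tnfrsf1α-/- (limma adjusted p = 0.000147) and -0.69 for Tnfrsf1β-/- (limma adjusted p = 0.0285). The second of these was lost in 8 of 12 fits with 1 library left out and was 0.59 under median-ratio scaling. Actb had 1.54 and 1.65, with limma adjusted p-values of 0.0190 and 0.00682, but under quantile normalization the values were -0.39 and -0.18. The first was also lost in 3 of 12 fits with 1 library left out, at an adjusted p of up to 0.0785. For Acta2 the difference was 6.24 for the label Tnfrsf1α-/-, which did not pass at an adjusted p of 0.119, and 9.79 for Tnfrsf1β-/-, at 0.0156.

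Without TNFα, both thymosins, both tropomyosins and Tagln2 were lower in each untreated knockout than in untreated WT, and Tagln was higher. The untreated WT libraries are shared by both comparisons. Under the label Tnfrsf1α-/- 1 of the 8 genes was higher and 6 were lower, where 53.7% of all genes tested were called, 36.7% higher and 17% lower. In Tnfrsf1β-/- 1 was higher and 5 were lower, where 54.4% were called, 36.9% higher and 17.5% lower. The medians of the 8 genes were -1.83 and -1.55, against 0.48 and 0.47 over all genes tested.

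Tmsb4x had 10.52 and 10.24 in libraries labelled Tnfrsf1α-/- and 10.40 and 10.32 in Tnfrsf1β-/-, against 13.14 and 13.89 in WT. Its differences were -3.13 and -3.15, with limma adjusted p-values of 0.000486 and 0.000472. Tmsb10 had 5.06 and 5.29 in libraries labelled Tnfrsf1α-/- and 4.09 and 4.27 in Tnfrsf1β-/-, against 8.24 and 8.89 in WT. Its differences were -3.39 and -4.38, with adjusted p-values of 0.000169 and 3.92e-05. Every knockout library lay below both WT libraries for both thymosins, and these calls held under every alternative run. The line of Tmsb10-ps6 had 10.49 and 10.55 in libraries labelled Tnfrsf1α-/-, 10.84 and 10.68 in Tnfrsf1β-/- and 11.88 and 12.64 in WT. No alternative run took reads that this line may share with Tmsb10 into account.

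Tpm1 had 9.50 and 9.39 in libraries labelled Tnfrsf1α-/- and 9.48 and 9.53 in Tnfrsf1β-/-, against 11.15 and 11.22 in WT, with differences of -1.74 and -1.68 (limma adjusted p = 0.000147 and 0.000174). Tpm2 had 0.57 and 0.34, and 0.55 and 0.16, against 3.22 and 3.99 in WT, with differences of -3.15 and -3.25 (adjusted p = 0.00945 and 0.00825). Every knockout library lay below both WT libraries for both tropomyosins, though Tpm2 did not pass without WT replicate 2, at 0.0683 and 0.0619. Tagln2 had 10.46 and 10.53 in libraries labelled Tnfrsf1α-/- and 10.26 in both Tnfrsf1β-/- libraries, against 11.82 and 11.56 in WT, with differences of -1.19 and -1.43 (adjusted p = 0.0318 and 0.0151). The first call was lost in 8 of 12 fits with 1 library left out, at an adjusted p of up to 0.121, and the second in 3, at up to 0.0668. Actb had 10.64 and 11.00 in libraries labelled Tnfrsf1α-/-, against 12.54 and 11.70 in WT, a difference of -1.30 (adjusted p = 0.00525). In Tnfrsf1β-/- it had 11.56 and 11.45, with a difference of -0.62 that did not pass (adjusted p = 0.0962).

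Tagln had 8.57 and 8.76 in libraries labelled Tnfrsf1α-/- and 8.95 and 8.89 in Tnfrsf1β-/-, against 7.85 and 7.70 in WT, with differences of 0.89 and 1.15 (limma adjusted p = 0.0173 and 0.00576). Acta2 had 6.67 and 6.98 in libraries labelled Tnfrsf1α-/- and 7.97 and 7.87 in Tnfrsf1β-/-, against 8.90 and 8.59 in WT. Its differences of -1.92 and -0.82 had adjusted p-values of 0.456 and 0.770, and of 7.09e-05 and 0.00535 without the treated pair labelled Tnfrsf1α-/-. Scaling set some of these directions. Under quantile normalization the differences of Tagln2, Actb and Tpm1 were above 0 in both knockouts, for Actb at 1.13 and 1.67, and the counts were 2 higher and 3 lower in each. Under median-ratio scaling none was higher and 6 were lower in each, and Tagln was at 0.31 and 0.58 and did not pass. The count of 7 under the label Tnfrsf1α-/- was 4 without WT replicate 2 or without untreated replicate 2 of that label.

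With TNFα, the thymosins and Tagln2 were far higher in each knockout than in WT and Tagln was lower. The treated WT libraries, in which the hepatocyte markers were high, are shared by both comparisons. Under the label Tnfrsf1α-/- 3 of the 8 genes were higher and 1 was lower, where 45.2% of all genes tested were called, 22.7% higher and 22.4% lower. In Tnfrsf1β-/- 5 were higher and 2 were lower, where 51% were called, 14.7% higher and 36.3% lower.

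**Figure D3:**
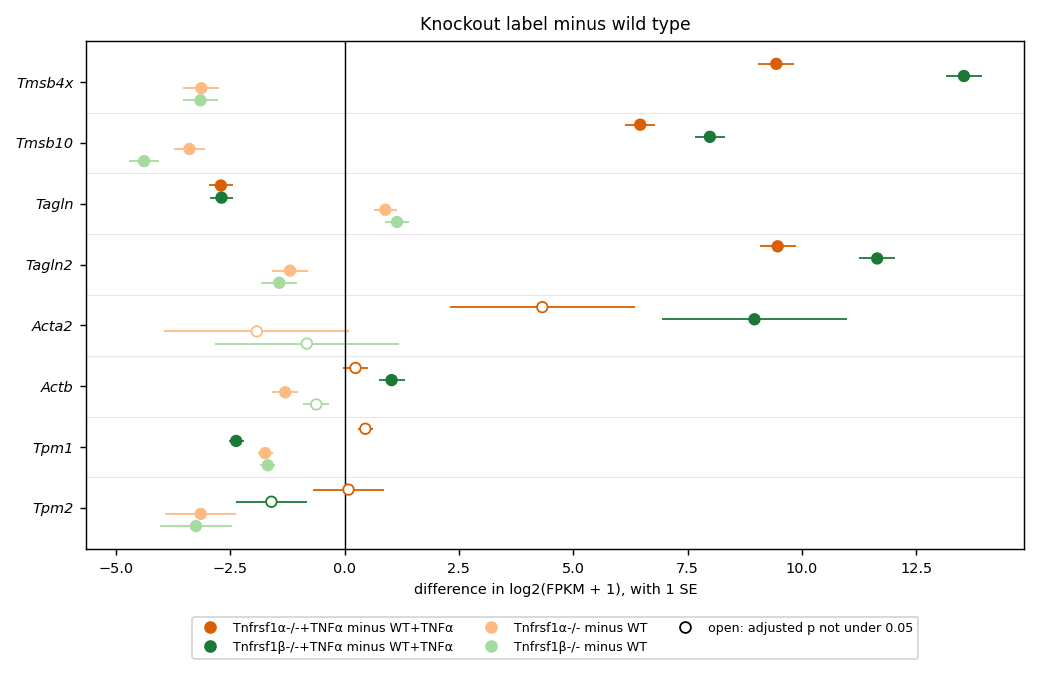
Difference in log2(FPKM + 1) between each knockout label and WT for the 8 genes tested, with TNFα and untreated, with 1 SE; filled points have a limma adjusted p under 0.05. The thymosins and Tagln2 lie above 0 with TNFα, at 6.46 to 13.54, and below 0 without it, at -1.19 to -4.38; Tagln lies on the opposite side in each case.

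For treated libraries labelled Tnfrsf1α-/- minus treated WT, the differences were 9.44 (SE 0.39) for Tmsb4x, 6.46 (SE 0.33) for Tmsb10 and 9.47 (SE 0.40) for Tagln2. For treated Tnfrsf1β-/- minus treated WT they were 13.54, 7.99 and 11.65. The 6 limma adjusted p-values ran from 1.25e-08 to 7.97e-07, and the calls held in every alternative run. Tagln was lower, with differences of -2.70 and -2.69 and adjusted p-values of 5.48e-05 and 4.12e-05. Tagln had 8.12 and 8.57 in treated libraries labelled Tnfrsf1α-/- and 8.20 and 8.52 in treated Tnfrsf1β-/-, against 10.73 and 11.37 in treated WT.

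Tpm1 differed in call between the 2 comparisons with treated WT. The 2 treated knockouts were not tested against each other here. Their means were 14.48 and 11.66 for Tpm1, and 9.93 and 14.03 for Tmsb4x. Treated libraries labelled Tnfrsf1α-/- had 14.41 and 14.55 for Tpm1, close to the 14.09 and 13.96 of treated WT. The difference of 0.45 had a limma adjusted p of 0.0518, and the result was the same in 16 of 20 alternatives. Treated Tnfrsf1β-/- had 11.65 and 11.67 for Tpm1, with a difference from treated WT of -2.37 (limma adjusted p = 4.79e-06). Acta2 was 8.96 higher in treated Tnfrsf1β-/- (adjusted p = 0.00618), while its libraries of 8.55 and 0.26 under the label Tnfrsf1α-/- gave a difference of 4.32 that did not pass (adjusted p = 0.111). Actb was 1.03 higher in treated Tnfrsf1β-/- (adjusted p = 0.0159), a call lost in 3 of 12 fits with 1 library left out. At 0.24 for the label Tnfrsf1α-/- Actb did not pass (adjusted p = 0.512). Tpm2 did not pass in either, with differences of 0.09 and -1.60 and adjusted p-values of 0.937 and 0.121. For the label Tnfrsf1α-/- its difference was 1.52 without treated replicate 1 and -1.35 without treated replicate 2, each from 1 treated library and past the threshold in opposite directions.

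Because FPKM is per length, 2 genes may be compared within a library, and the differences of all 4 pairs moved between treated and untreated WT. Tagln minus Tagln2 was 10.55 and 10.86 log2 units in WT with TNFα, against -3.97 and -3.86 in untreated WT. In the 8 other libraries it lay between -3.72 and -0.52, so Tagln exceeded Tagln2 in the treated WT libraries alone. Tmsb4x exceeded Tmsb10 in all 12 libraries. The excess was 0.51 and 0.28 in WT with TNFα, where both were near 0, and 2.71 to 6.31 elsewhere. The lowest of the latter, 2.71 and 4.03, were in treated libraries labelled Tnfrsf1α-/-. The line of the pseudogene Tmsb10-ps6, LOC100364435, lay above Tmsb10 in all 12 libraries, at 10.84 and 10.68 in untreated Tnfrsf1β-/- against 4.09 and 4.27. Reads that may be shared with such copies leave the excess of Tmsb4x over Tmsb10 uncertain. Actb minus Acta2 was 11.22 and 11.11 in WT with TNFα and 11.12 in replicate 2 of the treated label Tnfrsf1α-/-, against 3.05 to 4.02 in the other 9 libraries. Tpm1 minus Tpm2 was 11.46 and 11.25 in WT with TNFα, against 7.93 and 7.23 in untreated WT, and 8.93 to 13.09 in the knockout libraries.

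**Figure D4:**
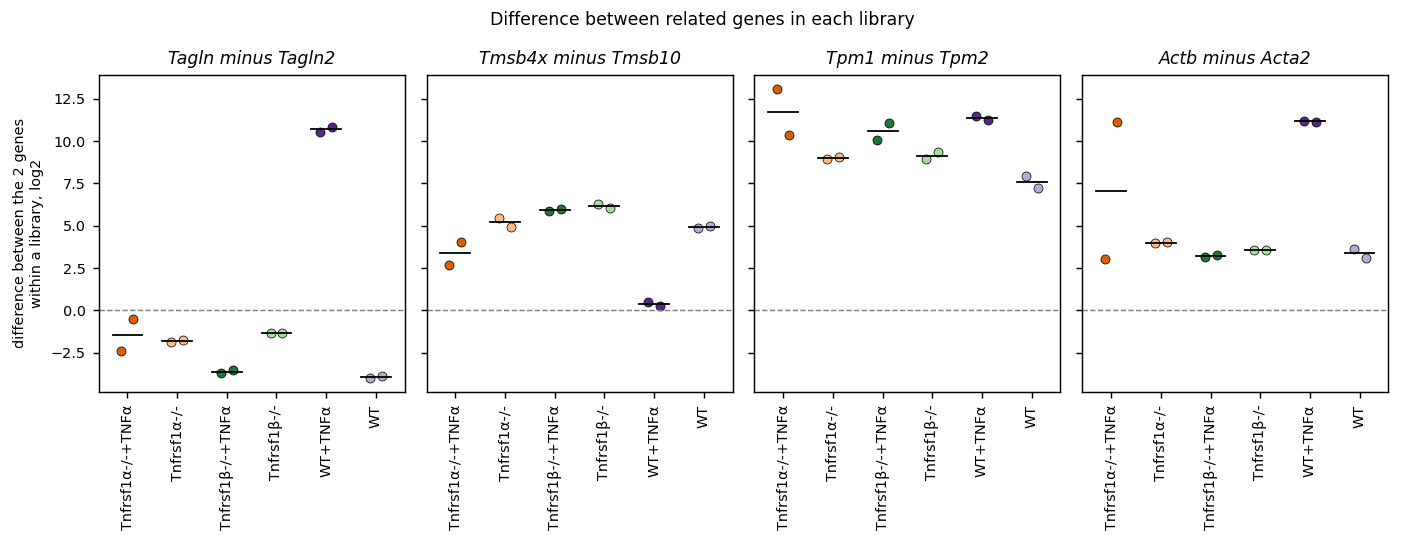
Difference in log2(FPKM + 1) between the members of 4 pairs of related genes, within each library, by group. Points are libraries and lines are group means; Tagln minus Tagln2 is above 10 in both libraries of WT with TNFα and below 0 in the 10 others.

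The order of the groups differed between genes. Tmsb4x was highest in Tnfrsf1β-/- with TNFα and in untreated WT, whose libraries overlapped, then close together, at 9.53 to 10.52, in both untreated knockouts and the treated label Tnfrsf1α-/-, and lowest in WT with TNFα. Tmsb10 had the same top pair, overlapping, and then fell in separate steps through the treated label Tnfrsf1α-/-, untreated Tnfrsf1α-/-, untreated Tnfrsf1β-/- and WT with TNFα. Tpm1 ran from the treated label Tnfrsf1α-/- through WT with TNFα, Tnfrsf1β-/- with TNFα and untreated WT to both untreated knockouts, of which only those last overlapped. Over the 10 genes the root mean square difference between libraries of untreated WT and of Tnfrsf1β-/- with TNFα ran from 0.615 to 1.22 log2 units. It was lowest between replicate 1 of each. Between the 2 untreated WT libraries it was 0.524, and between the 2 treated Tnfrsf1β-/- libraries 0.593. Over all 11860 genes tested the differences between these groups ran from 0.439 to 0.696, against 0.672 and 0.519 within them.

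Profiles most like these genes were ranked by the root mean square difference over the 12 libraries, after each profile was centred on its mean. This is a description, since the libraries share their groups. For Tmsb4x the nearest line was LOC100364435, at 0.978, whose gene ID belongs to the pseudogene Tmsb10-ps6 in GRCr8. It had 0.65 and 0.93 in WT with TNFα, 11.88 and 12.64 in untreated WT and 10.23 to 12.40 in the knockout libraries. Thymosin genes and such copies may share reads, which was not tested and leaves their levels uncertain. Next came Tagln2 at 1.04, Prkcdbp at 1.26, Csrp1 at 1.32 and Akr1b1 at 1.41, where the median of all genes tested was 4.64. For Tagln the nearest were Tjp3 at 0.222, Mroh2a at 0.263, Pnpla6 at 0.281, Kifc2 at 0.285 and Rn60_1_2620.2 at 0.297, against a median of 1.26. For Acta2 they were Tspan8 at 0.618, Ptgis at 0.686, Arhgdib at 0.736, Gpx7 at 0.798 and Ccl7 at 0.955, against 3.71. For Actb they were Tk1 at 0.206, Nanos1 at 0.209, Tuba1a at 0.227, Rps6ka4 at 0.243 and LOC100362342 at 0.268, against 1.07. Among the 10 genes themselves the closest pair of tested genes was Tmsb4x and Tagln2 at 1.04 and the farthest was Tmsb4x and Tpm1 at 5.70, while Tagln and Tagln2 were 5.02 apart.

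Lists of other actin cytoskeleton genes were counted in the same fits, against the same shares of all genes tested. In WT with TNFα, actins and actin regulators were mostly lower. Of the 16 tested, none rose and 12 fell by limma, where 31.9% of all genes tested were higher and 15.3% lower, with a median of -1.31 against 0.32 over all genes tested, and 7 fell without treated WT replicate 2. At an unadjusted p under 0.05 the counts were also 0 higher and 12 lower. Actg1, the other cytoplasmic actin, had 8.24 and 8.36 in WT with TNFα, against 10.13 and 9.84 in untreated WT, a difference of -1.69 (adjusted p = 9.69e-05). The filament-severing proteins Cfl2 and Dstn fell by 1.95 and 2.56 log2 units. Actb and Actg1 may share reads, which was not tested and leaves the split between them uncertain.

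Of 15 tested myosin and contractile genes, 3 rose and 7 fell in WT with TNFα, where 31.9% of all genes tested were higher and 15.3% lower. The same shares apply to the other lists in WT below. Csrp1, a LIM-domain protein, had 0.05 and 0.10 in WT with TNFα, against 9.50 and 9.37 in untreated WT, a difference of -9.36 (limma adjusted p = 2.75e-09). Ppp1r14a, an inhibitor of myosin phosphatase, rose by 3.40, and Myl6, the essential light chain of myosin, fell by 2.66. Of 15 crosslinker and focal adhesion genes, 2 rose and 6 fell, among them the LIM protein Fhl2 at -5.26 and the filamins Flna at -5.59 and Flnc at -3.81. Srf, the gene of serum response factor, lay between 3.83 and 5.60 in all libraries, and its muscle cofactor Myocd was at most 0.05. Mkl1, a cofactor of the myocardin-related family, ranged from 1.81 to 4.95. It had 4.39 and 4.34 in WT with TNFα, against 3.17 and 1.81 in untreated WT. Of 12 lines for the Arp2/3 complex and its activators, 5 rose and 3 fell, and 3 rose and 6 fell under median-ratio scaling. Actr2, a subunit of that complex, had 12.91 and 12.44 in WT with TNFα, against 5.51 and 4.24 in untreated WT, a difference of 7.80 (limma adjusted p = 5.99e-07).

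**Figure D5:**
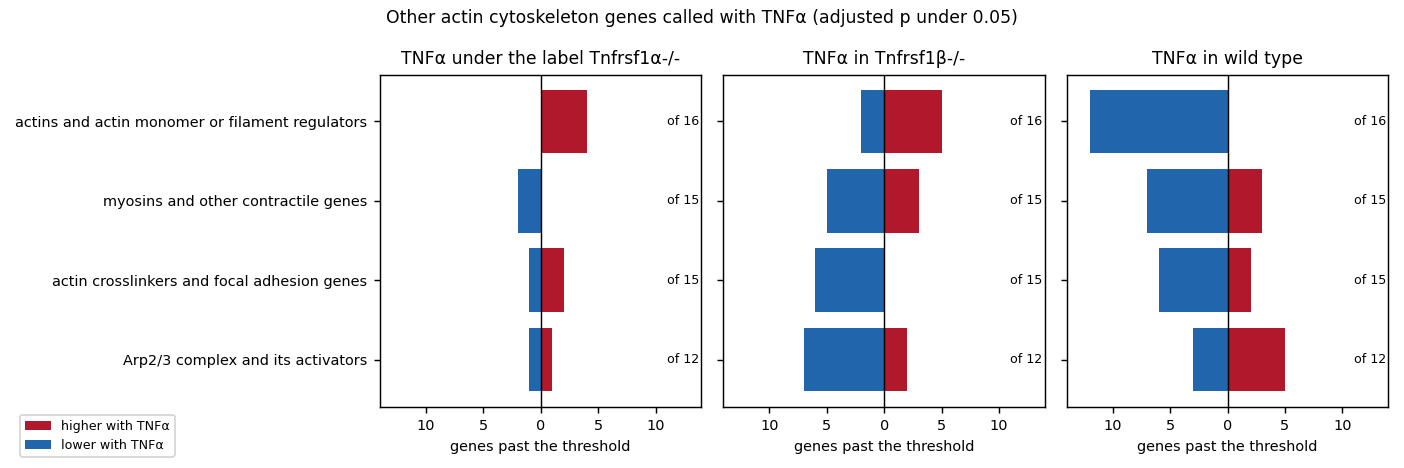
Number of genes in 4 lists of other actin cytoskeleton genes that passed the threshold with TNFα, higher to the right and lower to the left, by genotype label, with the number tested at the right edge. In WT 12 of 16 actins and actin regulators were lower and none higher, while in Tnfrsf1β-/- 5 were higher and 2 lower. Of all genes tested, 31.9% were higher and 15.3% lower in WT, and 17.6% higher and 42.9% lower in Tnfrsf1β-/-.

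With TNFα, libraries labelled Tnfrsf1α-/- had 4 of the 16 actins and regulators higher and none lower by limma, where 9.81% of all genes tested were higher and 7.5% lower. The count became 1 higher and 11 lower under quantile normalization and was 5 higher and 3 lower at an unadjusted p under 0.05. Cap2, an actin-binding cyclase-associated protein, had 10.34 and 10.29 in treated libraries of this label, against 0.59 and 0.42 in untreated ones, a difference of 9.81 (limma adjusted p = 5.76e-09). The monomer-binding profilin Pfn1 rose by 1.22 and Actg1 by 0.79, both of which were negative under quantile normalization, at -0.70 and -1.09. Actr2 had 12.66 and 12.52 in treated libraries, against 6.73 and 6.67 in untreated ones. The other lists had 0 higher and 2 lower of 15 contractile genes, 2 and 1 of 15 crosslinkers, and 1 and 1 of 12 Arp2/3 lines. At an unadjusted p under 0.05 by limma these were 1 and 4, 2 and 1, and 3 and 1.

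In Tnfrsf1β-/- with TNFα, 5 actins and regulators rose and 2 fell, where 17.6% of all genes tested were higher and 42.9% lower, and the counts became 3 and 8 under quantile normalization. Cap2 had 7.68 and 7.34 with TNFα, against 0.64 and 0.62 untreated, a difference of 6.88 (limma adjusted p = 5.30e-08). Pfn1 rose by 1.90, Csrp1 by 2.16 and Myl6 by 2.66. Of the other lists, 3 contractile genes rose and 5 fell, no crosslinker rose and 6 fell, and 2 Arp2/3 lines rose and 7 fell. By limma's unadjusted p under 0.05, 0 crosslinkers were higher and 8 lower. Under median-ratio scaling, which removes the shift of -0.66 in the median of all genes, 3 crosslinkers rose and 1 fell and 3 Arp2/3 lines rose and 2 fell. Actr2 had 5.11 and 4.32 in Tnfrsf1β-/- with TNFα, against 12.91 and 12.44 in WT with TNFα, a difference of -7.96 (limma adjusted p = 5.14e-07).

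Between untreated genotypes, Cap2 had 0.59 and 0.42 in untreated libraries labelled Tnfrsf1α-/- and 0.64 and 0.62 in untreated Tnfrsf1β-/-, against 8.97 and 9.24 in untreated WT, with differences of -8.60 and -8.47. Cnn3, a calponin outside smooth muscle, had 9.40 and 9.48 in untreated libraries labelled Tnfrsf1α-/- and 8.93 and 8.92 in untreated Tnfrsf1β-/-, against 3.40 and 2.77 in untreated WT, so that it was 6.36 and 5.84 higher. The highest level in any library was 1.46 for Myh11, 0.70 for Mylk, 0.53 for Actg2 and 0.07 for Lmod1, listed smooth muscle genes that did not reach the mean FPKM for testing.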

How the data were processed

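RNA-seq was made from total RNA of 12 rat HPC libraries with an Illumina TruSeq kit, per the labels' protocols. The authors deposited 1 table of 22730 lines whose values were read as log2(FPKM + 1): they run from 0 to 16.8, and back-transformed they sum to 447554 to 2085916 per library. How reads were aligned and quantified, and on which build and annotation, is not given in the sources used here, so no coordinate of the table's genes is given. Left out were 346 lines without a symbol, and 1835 lines that share a symbol were kept apart. No counts were at hand, so no depth or counting error can be given. Lines with a mean FPKM of at least 1 (11860) entered a limma 3.58.1 fit in R 4.3.3 on the log2 values, with 6 group means over all 12 libraries, no block, moderation along the intensity trend, and a pseudocount of 1. Two-sided p-values were adjusted over all lines of each of 9 contrasts by the Benjamini-Hochberg method, with a threshold of 0.05. The fit was tested on simulated data. Alternatives were other scalings, filters and pseudocounts, the replicate number as a block, only the groups compared, and each library left out. The members, gene lists and markers were chosen with earlier results of these data known. Named are all 10 members, up to 3 genes per list and contrast by smallest p, and the 5 nearest profiles of Tmsb4x, Tagln, Acta2 and Actb; the text prints a part of these, and 1 of the 5 lists is not reported here. Promoters are RefSeq's of GRCr8, with Python 3.11.15 used for the motif search.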

Additional observations from a re-analysis of the deposited data

Results flagged for a closer look

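The response to TNFα was compared between each knockout label and WT by limma's test of the difference of responses. It differed for 6 of the 8 genes tested under the label Tnfrsf1α-/-, where 34.8% of all genes tested were called. In Tnfrsf1β-/- it differed for 7, where 64.5% were called. For the label Tnfrsf1α-/- the differences in response were 12.57 log2 units for Tmsb4x, 9.86 for Tmsb10, 10.66 for Tagln2, -3.60 for Tagln, 2.19 for Tpm1 and 1.54 for Actb. For Tnfrsf1β-/- they were 16.69 for Tmsb4x, 12.37 for Tmsb10, 13.07 for Tagln2, 9.79 for Acta2, -3.84 for Tagln, 1.65 for Actb and -0.69 for Tpm1. The 2 sets of values share the WT libraries, of which the treated pair was the one with high hepatocyte markers. The part of this in the values was not tested. Under quantile normalization the values of Actb were -0.39 and -0.18, and the first was lost in 3 of 12 fits with 1 library left out. That of Tpm1 in Tnfrsf1β-/- was lost in 8 of those 12 fits and was 0.59 under median-ratio scaling. That of Acta2 in Tnfrsf1β-/- was lost in 2 of those 12 fits.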

How the results depend on the processing

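Across all alternatives, 1294 values of single genes of the set kept direction and call, 73 lost the call, 44 gained one and 20 changed sign. For the counts of genes called, 168 stayed within 1.5 times and 12 moved. Under the label Tnfrsf1α-/-, the 2 genes called with TNFα became 1 with a pseudocount of 0.1, no filter, median-ratio scaling or only the groups compared and 5 under quantile normalization, and ran from 1 to 5 with 1 library left out. For untreated libraries of that label against WT, the 7 ran from 4 to 8 with 1 library left out. The same ranges were 5 to 8 for TNFα in WT, 4 to 6 in Tnfrsf1β-/- and 5 to 8 for both differences in response.

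Most changes of sign came under quantile normalization. With TNFα under the label Tnfrsf1α-/- Actb was at -1.74, Actg1 at -1.09 and Pfn1 at -0.70. In Tnfrsf1β-/- Tagln2 was at -0.42, Acta2 at -0.33, Actb at -1.53, Cfl1 at -0.54 and Pfn1 at -0.12. The differences in response of Actb were -0.39 and -0.18, and that of Rhoa under the label Tnfrsf1α-/- was -0.064. Untreated, the label Tnfrsf1α-/- minus WT gave Tagln2 0.99, Actb 1.13, Tpm1 0.12, Cfl1 0.020 and Myl12a 0.25, and Tnfrsf1β-/- minus WT gave Tagln2 0.73, Acta2 0.64, Actb 1.67, Tpm1 0.34, Cfl1 0.42 and Pfn1 0.20. Treated, the label Tnfrsf1α-/- minus WT gave Tpm2 -0.18, and -0.052 with a pseudocount of 0.1. Under median-ratio scaling Tagln with TNFα in Tnfrsf1β-/- was 0.24 and the difference in response of Tpm1 there 0.59. With 1 library left out, under the label Tnfrsf1α-/-, Tagln2 with TNFα ran from -1.41 to 0.051, Acta2 from -6.57 to 1.72, and Tpm2 of treated libraries minus WT from -1.35 to 1.52. The cause of these changes was not tested.

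Same-numbered libraries share only a number in the labels: over 15 pairs of groups they correlated in their deviations at -0.169 to 0.244, over 0.1 in 9 and not in the rest. As a replicate block the number raised the count of all genes called in each of the 9 contrasts, by the most for TNFα under the label Tnfrsf1α-/-, at 2675 in place of 2052. For the 8 genes it left the counts as they were but for treated libraries labelled Tnfrsf1α-/- minus WT, at 5 in place of 4, where Tpm1 had an adjusted p of 0.049. The depth of the libraries is unknown, which limits what can be said of Cnn1 and Myl9.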
